A study of Mus musculus with 48 samples.

Results

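Follistatin and the activin system were followed in the mouse pars tuberalis through 7 genes: Fst, Inha, Inhba, Inhbb, Acvr1b, Acvr2a and Acvr2b. These 7 were taken by name from 18193 genes, and each was read from the brightest of the probe sets annotated to that gene alone, by the mean of the 48 arrays. The family was chosen by the measured Fst levels at ZT20 in the advance condition and at ZT0 under long days, so these values and every difference built on them are described below and carry no test. ZT counts hours from lights-on.

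The tissue was punched from frozen brain slices of male CBA/N mice, and each array measured 1 pool of 25 mice. All mice had lived on short days with 8 h of light for 3 weeks. In the advance condition (6 weeks of age) the first long day began 8 h early, with lights on from ZT16 of the earlier short-day cycle. In the delay condition (6 weeks) the dark was put off by 8 h on that first day, so that lights stayed on until ZT16. Long-day mice (8 weeks) had 16 h of light for 2 weeks, and short-day mice (8 weeks) stayed on 8 h of light. Each of the 4 conditions was sampled at 6 times of day, 4 h apart, with 2 arrays per time. In both first-day conditions ZT is that of the earlier short-day cycle, and delay arrays at ZT0 to ZT8 were taken ahead of the extra light. Advance and delay mice differ from long-day and short-day mice in age as well as in lighting. Short-day mice had also spent longer on short days than the other mice.

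Follistatin is a secreted protein that binds activins and keeps them from their receptors. Activins are dimers of the beta subunits encoded by Inhba and Inhbb, and inhibins join the alpha subunit encoded by Inha to one of these. Activin binds the type II receptors Acvr2a or Acvr2b, which recruit the type I receptor Acvr1b and set off SMAD signalling, and in pituitary gonadotrophs this raises the beta subunit of follicle-stimulating hormone. The pars tuberalis reads the night-time melatonin signal and makes thyrotropin under long days.

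The tissue label was checked first. Cga, the alpha subunit of the glycoprotein hormones, and Tshb, the beta subunit of thyrotropin, were both abundant on every array, and Tshb was at or above 9.72 on the log2 scale throughout. These 2 genes alone do not tell pars tuberalis from pars distalis tissue. The mean of Gh, Prl, Pomc and Ghrhr, genes of the pars distalis, ranged over arrays between 7.42 and 10.26 in advance and 8.19 and 8.96 in delay. It ranged between 7.71 and 10.75 under long days and 7.64 and 10.24 under short days. The part of pars distalis tissue in any member's difference was not tested. Array medians lay between 6.98 and 7.03 and first quartiles between 5.37 and 5.48, and no pair of arrays held identical values. Replicate 2 of long-day ZT16 and of long-day ZT20 stood apart from replicate 1 in clock genes. Dbp, a clock output gene, was 12.348 and 11.344 in replicates 1 and 2 at ZT16, and 11.004 and 12.363 at ZT20. Arntl, a core clock gene, was 8.38 and 9.06 at ZT16, and 8.93 and 8.26 at ZT20. In both genes replicate 2 of each time lay near replicate 1 of the other, as it would if these 2 arrays had been exchanged. Per2 did not show this pattern. The labels were kept, and an exchange would swap the replicate 2 values printed below for long-day ZT16 and ZT20. Member calls that use these arrays are given with and without both of them. Results for the pathway genes, the markers and the likeness to Fst are given only with both. In RMA data from pooled tissue, fewer cells of a type and less RNA per cell cannot be told apart.

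RefSeq (GRCm38.p6) places Fst on the interval chr13:114452262-114458989, and Inhba lies on the same chromosome at chr13:16004256-16031609. Inha lies at chr1:75507077-75510366 and Inhbb at chr1:119415463-119422248. The type II receptor genes are at chr2:48814109-48903264 for Acvr2a and chr9:119401583-119442148 for Acvr2b, and the type I receptor gene Acvr1b is at chr15:101174072-101213684. Of the 7 genes, 6 had a promoter in the RefSeq table used, and Fst did not. The 250 bases ahead of the transcript start that the table uses are shown for Inha (chr1:75507359-75507608, plus strand) and Acvr2b (chr9:119401928-119402177, plus strand), since these members had the largest long-minus-short differences with the probe sets used. Those starts lie inside the gene intervals above, 532 bases after the outer start for Inha and 595 for Acvr2b, so the windows shown are not the bases ahead of the outermost start. The Inhba start lies 7595 bases inside its interval, and those of Inhbb, Acvr1b and Acvr2a at its outer end. Capitals mark the motif matches named after the sequences.
Inha: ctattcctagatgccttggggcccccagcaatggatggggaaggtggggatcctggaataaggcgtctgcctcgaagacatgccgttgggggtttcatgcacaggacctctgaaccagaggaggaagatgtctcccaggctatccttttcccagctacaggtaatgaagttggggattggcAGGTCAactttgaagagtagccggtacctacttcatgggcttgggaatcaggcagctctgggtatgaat
Acvr2b: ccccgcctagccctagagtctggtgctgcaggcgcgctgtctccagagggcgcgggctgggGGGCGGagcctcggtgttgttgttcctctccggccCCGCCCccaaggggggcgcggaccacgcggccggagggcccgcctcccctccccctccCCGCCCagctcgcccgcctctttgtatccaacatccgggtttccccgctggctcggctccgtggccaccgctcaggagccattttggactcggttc
The capitals in Inha mark 1 nuclear receptor half-site (AGGTCA) at -69 from the start. The capitals in Acvr2b mark 3 GC boxes (GGGCGG, here also read on the other strand) at -189, -154 and -96. Both strands were searched in the 250 bases ahead of each start, and 13.8% of 27025 mouse promoters held the half-site and 32.9% a GC box. Among the other members, Inhba held a D-box (TTANGTAA) at -123 and Acvr1b an E-box (CACGTG) at -54, which occurred in 2.11% and 6.05% of promoters. GC boxes were also found in Acvr1b (4), Acvr2a (2) and Inhbb (1). None of the 6 members searched held a cyclic AMP response element (TGACGTCA, in 1.62% of promoters), its half-site TGACG (17.9%, which overlaps the full element), or the SMAD box GTCTAGAC (0.174%). Fst was not searched. A match describes letters in this window and was not tested as a binding site.

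The group means of Fst, the binder of activin, spanned 3.66 log2 units over the 24 groups, a rank of 4 among 18193 genes. That span rests on advance ZT20, one of the values that chose the family: over the 22 groups without it and long-day ZT0 the span was 1.77, a rank of 80. Over all 24 groups the spans of the other members were 1.04 for Acvr2b, 0.72 for Inha, 0.53 for Acvr2a, 0.37 for Acvr1b, 0.34 for Inhba and 0.31 for Inhbb.

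In the advance condition the 2 arrays of Fst were at log2 levels of 7.44 and 7.49 at ZT0, 6.73 and 6.50 at ZT4, 6.23 and 6.04 at ZT8, 6.64 and 6.70 at ZT12, 6.84 and 6.57 at ZT16, and 8.54 and 10.17 at ZT20. In the delay condition they were 6.96 and 7.27 at ZT0, 7.12 and 6.79 at ZT4, 6.28 and 6.52 at ZT8, 6.28 and 6.21 at ZT12, 5.83 and 6.46 at ZT16, and 6.30 and 6.71 at ZT20. Both ZT20 arrays of the advance condition lay above every delay array. Under long days Fst was 8.68 and 8.89 at ZT0, 6.60 and 6.72 at ZT4, 6.23 and 6.46 at ZT8, 5.80 and 5.67 at ZT12, 5.41 and 6.09 at ZT16, and 5.72 and 5.68 at ZT20. Under short days it was 6.47 and 6.63 at ZT0, 6.44 and 6.39 at ZT4, 5.83 and 5.79 at ZT8, 6.29 and 6.10 at ZT12, 6.27 and 5.96 at ZT16, and 6.98 and 6.73 at ZT20. Both ZT0 arrays of long days lay above every short-day array, and the 4 high arrays of advance ZT20 and long-day ZT0 lay above all 44 others, the highest of which was 7.49.

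**Figure D1:**
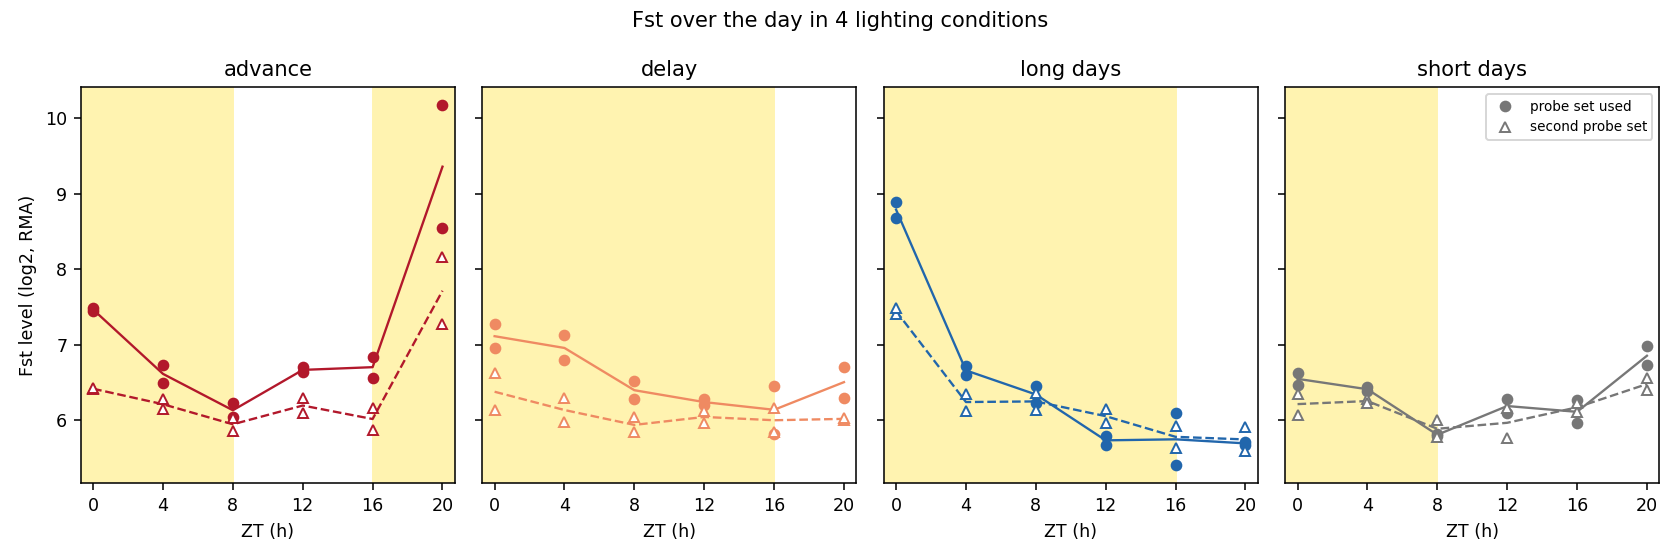
Log2 level of Fst (vertical axis) against ZT in hours in the advance, delay, long-day and short-day conditions, with 2 arrays per time, lines through the means and light periods shaded. Filled circles are the probe set used and open triangles the second probe set; the mean of the first stands at 9.36 at advance ZT20 and 8.79 at long-day ZT0, and no other array of it exceeds 7.49.

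As values that chose the family, these differences are given with the standard error of the model and no p. That error pools the spread of all groups, so it does not show the wider spread of the advance ZT20 pair. Fst at long-day ZT0 exceeded the mean of the other long-day times by 2.75 ± 0.21 log2 units, a 6.73-fold difference, and exceeded long-day ZT20, 4 h earlier, by 3.09 ± 0.27. It exceeded short-day ZT0 by 2.24 ± 0.27. By the titles long-day ZT0 and short-day ZT20 were both collected at clock hour 3, and at that hour long days exceeded short days by 1.93 ± 0.27. Advance ZT20 falls at the same point of the short-day cycle, 4 h into the early light, and exceeded advance ZT16 by 2.65 ± 0.27. With the short-day change over the same 4 h taken off, that step was 1.91 ± 0.38, or 3.76-fold. The 2 advance arrays at ZT20 differed in Fst by more than the arrays of any other group, with a mean of 9.36 ± 1.15 (SD, n = 2), against 8.79 ± 0.15 (SD, n = 2) at long-day ZT0.

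The order of the 24 groups ran from advance ZT20 through long-day ZT0 (8.79), advance ZT0 (7.47), delay ZT0 (7.11), delay ZT4 (6.96) and short-day ZT20 (6.86) down to long-day ZT12 (5.74) and ZT20 (5.70). Of the 23 pairs of neighbours in that order, 20 overlapped in their arrays. Only long-day ZT0 over advance ZT0, advance ZT0 over delay ZT0, and short-day ZT16 over short-day ZT8 were separated. The low long-day values at ZT12 to ZT20 lay close to the first quartile of the arrays. The second Fst probe set followed the first with r = 0.95 over the 24 group means, a description in which the high groups weigh most. It read 7.27 and 8.16 at advance ZT20 and 7.40 and 7.49 at long-day ZT0, while its other 44 arrays reached 6.63 at most.

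Tests of Fst compared the remaining times, but their spread came from all 48 arrays, with the widely spaced advance ZT20 pair among them. Through this spread, a value that chose the family still bears on each adjusted p of Fst. Between ZT4 and ZT20 its course differed between long and short days: the long-minus-short difference was 0.25 at ZT4, 0.53 at ZT8, -0.45 at ZT12, -0.36 at ZT16 and -1.16 at ZT20, a range of 1.69 log2 units (limma F test of time by photoperiod, adjusted p = 0.0323 over all genes). Long-day arrays were thus above short-day arrays early in the day and below them at ZT20, where 5.72 and 5.68 stood against 6.98 and 6.73. In this test 3.74% of all genes passed, and with the probe sets used Fst was the 1 member of 7 that did. Without the 2 long-day arrays that stood apart, adjusted p was 0.0379 and the range 1.67. The call was lost on leaving out any of 10 single arrays, namely short-day ZT4 replicate 1, long-day ZT4 replicate 2, and either replicate of ZT8 and ZT20 in both photoperiods (adjusted p 0.0181 to 0.122 over all single omissions), and adjusted p was 0.0702 with the second probe set and 0.0547 with the mean of both.

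Averaged over ZT4 to ZT20, Fst was 6.04 under long days and 6.28 under short days, a difference of -0.24 ± 0.12 that did not pass (adjusted p = 0.111). It passed without long-day ZT16 replicate 2 (-0.31, adjusted p = 0.0420). It also passed in a fit of only the conditions compared, which leaves out the advance arrays (SE 0.08, adjusted p = 0.0147). Without both doubted arrays adjusted p was 0.0617. Within the long-day course from ZT4 to ZT20 it ranged over 0.97 log2 units and did not pass (adjusted p = 0.0985), in a test that 1.39% of genes and none of the 7 members passed at the adjusted threshold of 0.05; at unadjusted p under 0.05 it called 1783 genes. Leaving out replicate 2 at long-day ZT16 brought its adjusted p to 0.0465, and leaving out both doubted arrays to 0.0573. Over the short-day course the range was 1.05 log2 units with the highest mean at ZT20 (adjusted p = 0.0746), and it passed in a fit of short days alone (adjusted p = 0.0206) and with a replicate block within conditions (adjusted p = 0.04996).

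In the advance condition without ZT20, Fst varied over the day by 1.33 log2 units (adjusted p = 0.0373), from 7.47 at ZT0 as the highest mean to 6.13 at ZT8 as the lowest. Fst was again the 1 member to pass, in a test that 2.12% of genes passed. The call was lost when any single array other than ZT16 replicate 2 was left out (adjusted p 0.0492 to 0.270), and the second probe set gave a range of 0.47 with adjusted p = 0.690. It was also lost with the mean of both probe sets (adjusted p = 0.203). The same held in a fit of the advance condition alone, whose spread still includes ZT20 (adjusted p = 0.0723). In the delay condition, Fst had its highest mean at ZT0 (7.11) and its lowest at ZT16 (6.14), and this course did not pass (adjusted p = 0.136), with 1.52% of genes called and none of the members; 2101 genes had an unadjusted p under 0.05.

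Evening light on the first long day was read from delay arrays. For the first 4 h of it, the change in Fst from ZT8 to ZT12 in the delay condition minus the same change under short days was -0.54 ± 0.38 (adjusted p = 0.735). In this comparison 0.0385% of genes and no member passed, and 1380 genes had an unadjusted p under 0.05. With both lit evening times set against the 3 earlier times, Fst gave -0.53 ± 0.25 (adjusted p = 0.164). Fst therefore passed in neither evening comparison. Across ZT0 to ZT8, when advance mice had 8 h or more of the early light behind them and delay mice none of the late light, Fst averaged 6.74 in advance and 6.82 in delay, a difference of -0.09 ± 0.16 (adjusted p = 0.797).

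The alpha subunit gene Inha was lower under long days than under short days. In the advance condition its lowest, median and highest arrays were 8.80, 9.01 and 9.14, in the delay condition 8.86, 9.06 and 9.26, under long days 8.88, 8.96 and 9.05, and under short days 9.22, 9.44 and 9.70 (12 arrays each). Short-day arrays were the high ones, and 1 delay array, at 9.26, reached into their range. Of all genes, 0.599% had all 36 arrays of the other conditions below the 12 short-day arrays, and no member was among them.

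Between ZT4 and ZT20, Inha was 8.97 under long days and 9.39 under short days. The difference was -0.43 ± 0.05 log2 units, a 1.34-fold fall (limma, adjusted p = 5.08e-09), and long-day means were lower at each of the 5 times, by 0.25 at ZT12 up to 0.52 at ZT8 in size. None of its 10 long-day arrays overlapped the 10 short-day arrays, which held for 3.60% of genes in this direction. In this comparison 43.3% of all genes passed, 26.4% as lower. Inha passed under all 31 alternatives, with adjusted p between 5.32e-11 and 1.26e-05, and has no second probe set here.

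Inha was also low in both groups of younger mice, which is given as a description because age differs. Over 6 times the difference from short days was -0.42 ± 0.04 in advance and -0.38 ± 0.04 in delay. In delay arrays at ZT0 to ZT8, ahead of any extra light, the difference was already -0.51 ± 0.06. The delay mice had been under the same 8 h of light as the short-day mice until then. They differed from the short-day mice in age, in time spent on short days and in set. For the values over 6 times, age, time on short days and set of mice cannot be told apart from lighting.

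Gonadotroph markers moved in part with Inha, which gonadotrophs are known to express. Of 5 such genes 4 were lower under long days at ZT4 to ZT20: Fshb by -0.97 ± 0.18 log2 units (adjusted p = 3.69e-05), Lhb by -0.57 ± 0.13, Gnrhr by -0.43 ± 0.17 and Nr5a1 by -0.16 ± 0.05, while Foxl2 gave -0.06 ± 0.06 and did not pass. Of all genes 43.3% passed in this comparison, 26.4% as lower. The mean of the 5 genes ranged over arrays between 7.56 and 8.20 in advance, 7.54 and 8.01 in delay, 6.55 and 7.77 under long days, and 6.76 and 8.32 under short days. Gnrhr was below the first quartile of the array on 8 long-day and 2 short-day arrays. The marker mean averaged 7.90 in the advance condition, 7.75 in delay, 7.10 under long days and 7.54 under short days, a description across ages. For Fst the marker mean was 8.01 and 7.88 at advance ZT20 and 8.14 and 8.10 at advance ZT16, and the part of gonadotroph content in any member's difference was not tested. Markers of folliculostellate cells, a known pituitary source of follistatin, were mixed: 1 of 5 was higher and 3 lower under long days.

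**Figure D2:**
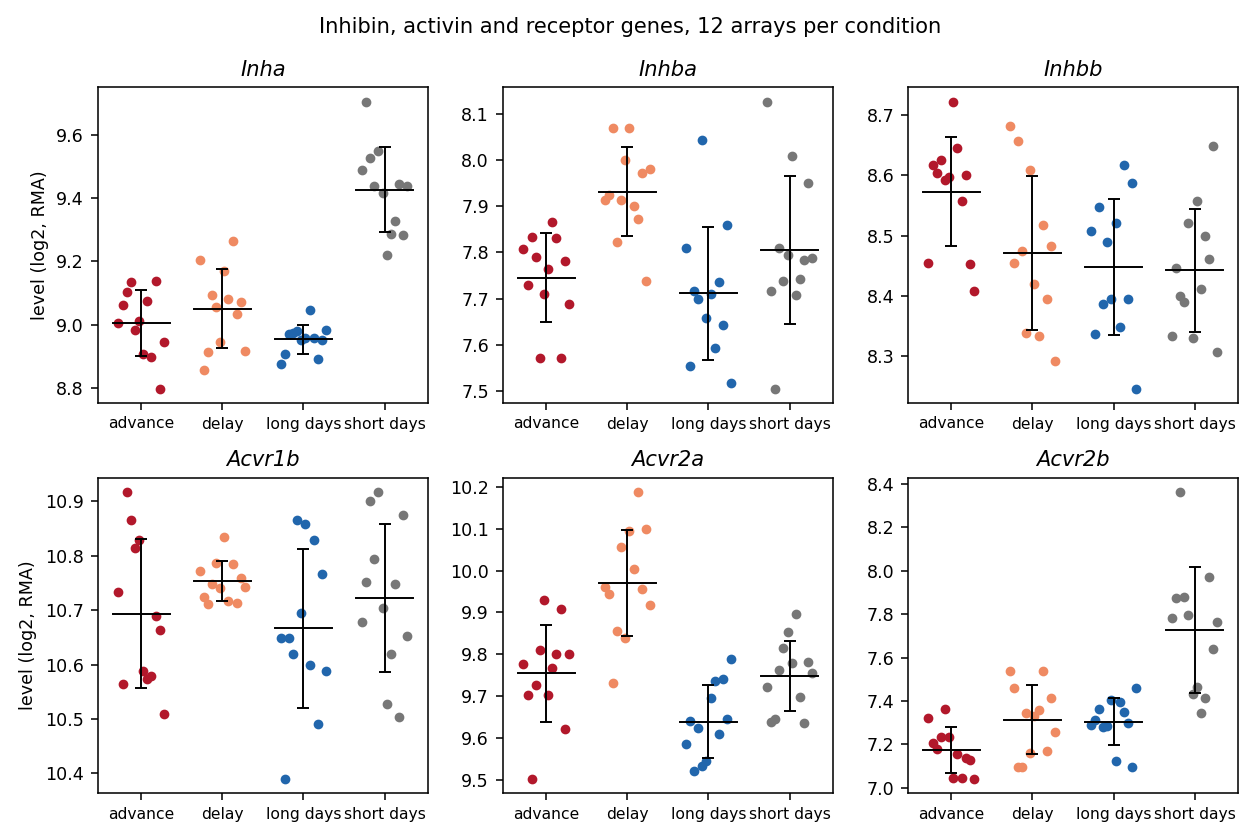
Log2 levels of Inha, Inhba, Inhbb, Acvr1b, Acvr2a and Acvr2b (vertical axes) on the 12 arrays of the advance, delay, long-day and short-day conditions, in order of ZT within each, with the mean and SD as bars. Short-day arrays stand highest for Inha (9.22 to 9.70) and Acvr2b (7.34 to 8.36), and delay arrays for Acvr2a (9.73 to 10.19).

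With the probe sets used, Inha also gave the only member call for evening light. In the delay condition it was 9.17 and 9.08 at ZT12 and 9.26 and 9.03 at ZT16, after 9.20, 8.86, 8.91, 9.09, 9.06 and 8.95 at ZT0 to ZT8. Under short days it was 9.22 and 9.29 at ZT12 and 9.33 and 9.44 at ZT16, after 9.49, 9.70, 9.53, 9.44, 9.55 and 9.41 at ZT0 to ZT8. Delay evening arrays overlapped the earlier delay arrays, whereas most short-day evening arrays lay below the earlier short-day ones. The difference of these changes was 0.33 ± 0.09 log2 units (adjusted p = 0.0388), where 6.11% of genes passed and 5.16% as higher. The call was lost in 13 of 28 alternatives. These were the omission of single arrays (delay ZT0 replicate 2, ZT4 replicate 1, ZT8 replicate 2, either ZT12 replicate and ZT16 replicate 1; short-day ZT0 replicate 2 and replicate 1 of ZT4, ZT8, ZT12 and ZT16; adjusted p 0.0128 to 0.113 over all omissions), the signal ratio of the actin control probes as a covariate (0.21, adjusted p = 0.141) and a fit of only the 2 conditions compared (adjusted p = 0.125).

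The actin controls give the 3 prime minus 5 prime signal, a sign of RNA quality. It averaged 1.69 ± 0.09 log2 units in advance, 1.85 ± 0.13 in delay, 1.65 ± 0.12 under long days and 1.89 ± 0.12 under short days (SD, 12 arrays each). With it as a covariate, 5083 genes in place of 7872 passed in long minus short days. Inha stayed past the threshold there, at a smaller size of -0.30 ± 0.05 in place of -0.43 ± 0.05. Acvr2b also stayed past it, at -0.29 ± 0.08 in place of -0.40 ± 0.07, and Acvr2a did not.

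Of the activin beta subunits, Inhba varied little, with levels between 7.51 and 8.13 on all 48 arrays. Its long-minus-short difference was -0.07 ± 0.06 (adjusted p = 0.438). Over ZT0 to ZT8 it was 7.74 in advance and 7.94 in delay, a difference of -0.20 ± 0.08 that did not pass (adjusted p = 0.123), though it did in a fit of only these 2 conditions (adjusted p = 0.0461).

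Inhbb, the other activin subunit, gave different answers from its 2 probe sets. The one used here lay between 8.25 and 8.72 throughout and gave 0.00 ± 0.05 for long minus short days (adjusted p = 0.995). The other read lowest, median and highest values across 48 arrays of 7.25, 7.94 and 8.44. It was lower under long days by -0.28 ± 0.06 (adjusted p = 0.000180), higher for evening light by 0.42 ± 0.12 (adjusted p = 0.0399) and higher in advance than in delay by 0.28 ± 0.08 (adjusted p = 0.0194). By F test it also varied over the short-day course (range 0.69, adjusted p = 0.0154). Its course from ZT4 to ZT20 differed between long and short days (range 0.80, adjusted p = 0.0466). The 2 probe sets correlated with r = 0.16 over 24 group means, so no direction is given for Inhbb as a gene.

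Among the receptors, the type I receptor Acvr1b varied little, between 10.39 and 10.92, and it passed no test in the fit of all arrays. Its long-minus-short difference was -0.03 ± 0.05 (adjusted p = 0.679).

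The type II receptor Acvr2b was lower under long days with the probe set used. Its lowest, median and highest arrays were 7.04, 7.17 and 7.37 in advance, 7.10, 7.34 and 7.54 in delay, 7.09, 7.31 and 7.46 under long days, and 7.34, 7.77 and 8.36 under short days. The short-day arrays were high but overlapped those of the other conditions at their lower end. Between ZT4 and ZT20 the means were 7.31 under long days and 7.71 under short days, a difference of -0.40 ± 0.07 (adjusted p = 9.50e-06). The 2 other Acvr2b probe sets gave 0.07 ± 0.06 and -0.02 ± 0.07 and did not pass. They correlated with the first at r = 0.15 and -0.51 over group means. The probe set at -0.02 passed for advance minus delay at ZT0 to ZT8 (-0.34 ± 0.09, limma, adjusted p = 0.0171).

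Evening light gave 0.37 ± 0.14 for Acvr2b (adjusted p = 0.0849), which passed without replicate 2 of short-day ZT4, ZT8 or ZT16 (adjusted p = 0.0226, 0.0399 and 0.0211).

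With the probe sets used, Acvr2b was also the only member to vary over the short-day course, in a test that 8.91% of genes passed. Its short-day arrays were 7.78 and 7.87 at ZT0, 8.36 and 7.88 at ZT4, 7.80 and 7.43 at ZT8, 7.46 and 7.34 at ZT12, 7.41 and 7.97 at ZT16, and 7.64 and 7.76 at ZT20. The highest time was ZT4 and the lowest ZT12, 0.72 log2 units apart (adjusted p = 0.0279). Without replicate 1 at ZT4 the range was 0.48 and the call was lost (adjusted p = 0.255), as it was without replicate 1 or 2 at ZT12 (adjusted p = 0.0525 and 0.111), in a fit of short days alone (0.408) and with each other probe set (0.900 and 0.340).

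The other type II receptor, Acvr2a, stood highest in delay. Its lowest, median and highest arrays were 9.50, 9.77 and 9.93 in advance, 9.73, 9.96 and 10.19 in delay, 9.52, 9.63 and 9.79 under long days, and 9.64, 9.76 and 9.90 under short days. Delay exceeded short days over 6 times by 0.22 ± 0.04, a description across ages. Long days were below short days by 0.12 at ZT4 to ZT20 (-0.12 ± 0.04, adjusted p = 0.0197), with overlapping arrays. This call was lost with the other probe set (-0.01, adjusted p = 0.854) with the actin covariate (adjusted p = 0.216) and without long-day ZT16 replicate 1 (adjusted p = 0.0507). Advance minus delay at ZT0 to ZT8 was -0.16 ± 0.05 and missed the threshold (adjusted p = 0.0621), in a comparison that 8.75% of genes passed. With the probe sets used, no member passed there at the adjusted threshold, and 4149 genes had an unadjusted p under 0.05. Acvr2a passed without advance ZT4 replicate 2 (adjusted p = 0.0344), without delay ZT8 replicate 2 (0.0311) and with arrays centred on their median (0.0465). It also passed with a replicate block within conditions, an alternative chosen after seeing the data (-0.26, adjusted p = 0.00295).

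**Figure D3:**
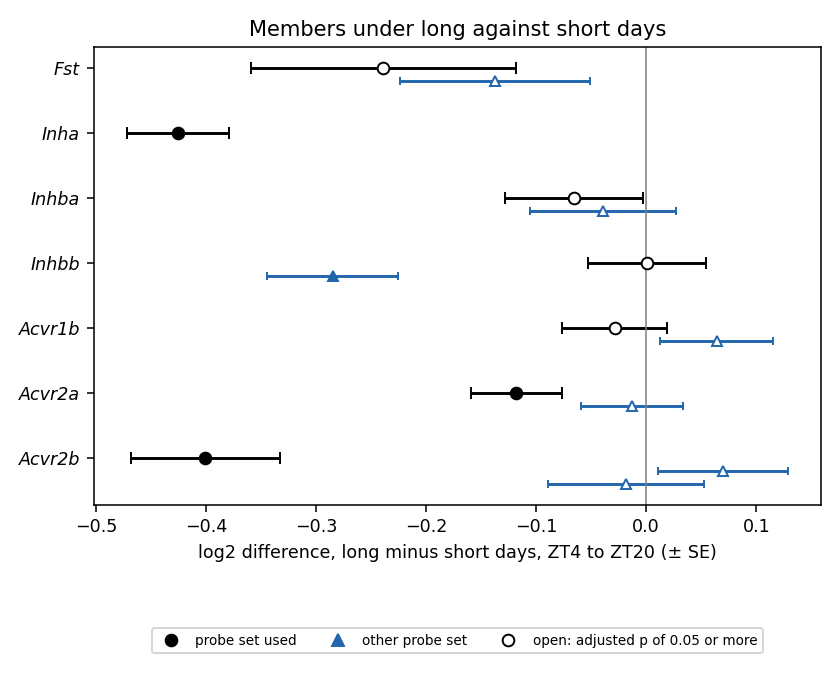
Log2 difference of each member, long minus short days averaged over ZT4 to ZT20, with its SE (horizontal axis), for the probe set used (circles) and other probe sets (triangles), filled where adjusted p is below 0.05. Inha (-0.43), Acvr2b (-0.40) and Acvr2a (-0.12) passed with the probe set used, and the other probe sets of Acvr2b and Acvr2a lie near 0.

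Thus 3 of 7 members passed in long minus short days, each as lower, a share near the 43.3% of all genes that passed. With the 2 doubted long-day arrays left out, 3 members passed again, at -0.42 for Inha, -0.43 for Acvr2b and -0.15 for Acvr2a. Matched by clock hour in place of ZT, 3 passed as well.

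The rest of the pathway was read from 46 further genes in 6 lists. Between ZT4 and ZT20 under long against short days 28 of the 46 passed, 12 as higher and 16 as lower. The median difference was -0.03 log2 units, as it was over all genes (-0.03). Counts below are of genes that passed. They stand beside 43.3% of all genes that passed in this comparison, 26.4% as lower.

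Of 6 binders and co-receptors, 2 were higher and 2 lower. Tgfbr3, the betaglycan that helps inhibin bind activin receptors, was 11.6 under long days and 11.2 under short days (0.35 ± 0.05, adjusted p = 1.27e-06). Bambi, a decoy receptor without a kinase, was higher by 0.34 ± 0.06, and Igsf1, a pituitary membrane protein needed for normal thyrotropin output, was lower by -0.26 ± 0.05. The follistatin-related binder Fstl3 was lower by -0.18 ± 0.05.

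Of 9 other ligands, 2 were higher and 1 lower. Gdf9, a growth factor best known from oocytes, was higher by 0.82 ± 0.08 (adjusted p = 2.53e-10), at 7.38 to 8.09 on the 10 long-day arrays of ZT4 to ZT20 and 6.78 to 7.15 on the 10 short-day arrays. Bmp2 was higher by 0.33 ± 0.06 and Bmp4 lower by -0.18 ± 0.07. Of 4 proteases that cut ligand precursors, none was higher and 2 were lower. Pcsk6 gave the larger fall, at 7.70 to 7.94 under long days and 8.05 to 8.67 under short days at the same 5 times (-0.61 ± 0.05, adjusted p = 1.12e-11). Its arrays did not overlap, which held for 3.60% of genes in this direction.

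Of 8 other receptors, 3 were higher and 2 lower. The type I receptor Bmpr1b, which binds bone morphogenetic proteins, was higher by 0.43 ± 0.05 and Tgfbr1 by 0.23 ± 0.05, while the type I receptor Acvr1 was lower by -0.21 ± 0.04.

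Of 13 genes of SMAD transduction, 4 were higher and 6 lower. The co-repressors moved apart, with Tgif1 higher by 0.40 ± 0.06 and Ski lower by -0.40 ± 0.06. Smad3, which activin receptors phosphorylate, was higher by 0.19 ± 0.03.

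Of 9 genes known to respond to activin or bone morphogenetic proteins, 1 was higher and 5 lower. Fshb was 8.26 under long days and 9.23 under short days, and the inhibitory Smad7 was lower by -0.27 ± 0.06. Skil, a SMAD co-repressor, was lower by -0.11 ± 0.04. Smad7, Skil and Pmepa1 stand in both of these last lists, and Fshb and Gnrhr are also gonadotroph markers.

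**Figure D4:**
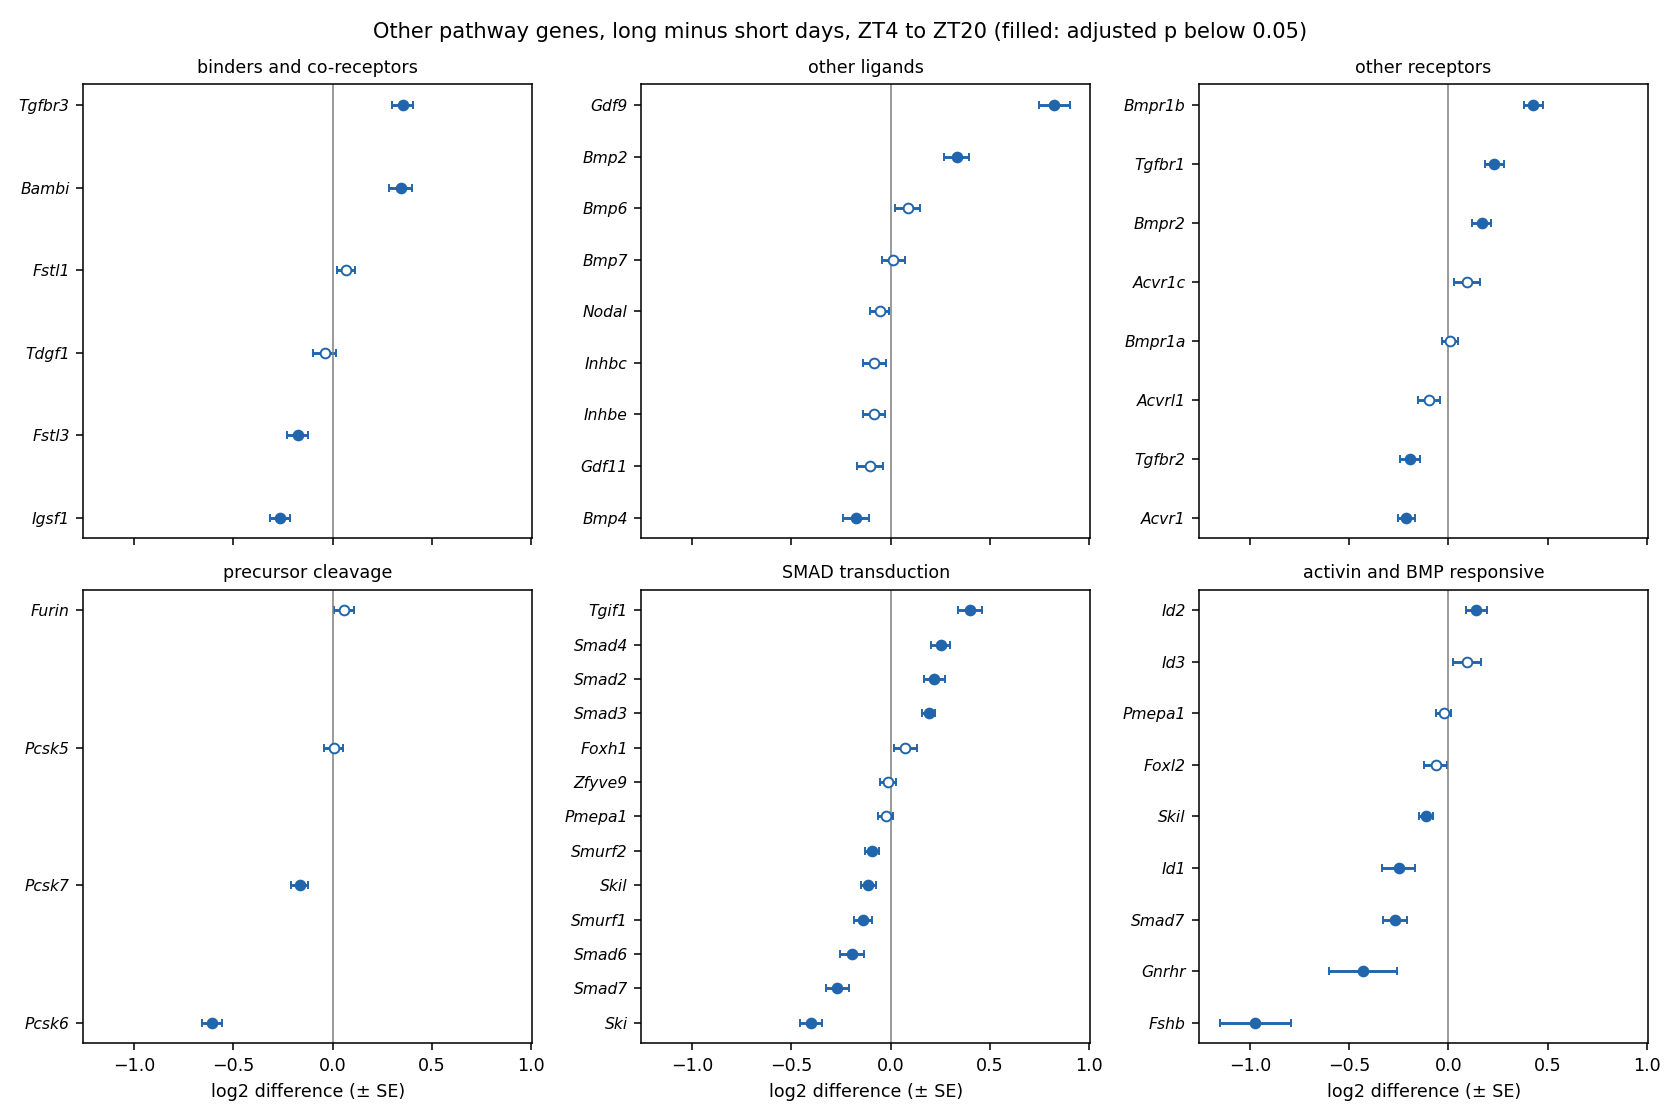
Log2 difference, long minus short days averaged over ZT4 to ZT20, with SE (horizontal axes), for the 46 other pathway genes in 6 panels by role, filled where adjusted p is below 0.05. Of the 46, 12 are filled on the right and 16 on the left, beside 43.3% of all genes that passed. Gdf9 (0.82) and Fshb (-0.97) lie farthest out.

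Over the day, 10 of 46 pathway genes varied under short days, where 8.91% of all genes did, among them Smad3 (0.37 log2 units, adjusted p = 0.000268), the receptor Tgfbr2 (0.58), the ligand Bmp6 (0.76) and the BMP-responsive Id2 (0.61). From ZT4 to ZT20 of long days 5 of the 46 varied, where 1.39% of all genes passed, and over all 6 long-day times 7 did, where 1.63% passed. The course differed between photoperiods from ZT4 to ZT20 for 4 of the 46 (3.74% of all genes), as it did for Fst: Id2 (1.12, adjusted p = 0.000164), Bambi (1.00), Bmpr1b (0.76) and Smad3 (0.54). The means of Id2 were 10.79 under long days and 10.14 under short days at ZT4, and 10.04 under long days and 10.51 under short days at ZT20. Like Fst, Id2 was above its short-day level at ZT4 and below it at ZT20, and no test linked both genes.

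On the first long day, 3 of the 46 pathway genes varied over the delay course (Id2, Skil and Bambi), where 1.52% of all genes did, and 1 over the advance course without ZT20 (Pmepa1), where 2.12% did. For both evening times together 3 of 46 passed, beside 6.11% of all genes: Bambi (0.51 ± 0.12) and Acvr1 (0.28 ± 0.09) were higher and Foxh1, a SMAD partner, lower (-0.45 ± 0.12). Over ZT0 to ZT8, 7 of 46 differed, beside 8.75% of all genes: Igsf1, Smad4 and Pcsk5 were higher in advance than in delay and Gdf9, Bmpr1b, Smad6 and Pmepa1 lower, with Gdf9 at -0.61 ± 0.10 (adjusted p = 0.000190). In the first 4 h of late-night light, the step in which Fst stood out, none of the 46 passed by limma, where 0.220% of genes did and 1128 had an unadjusted p under 0.05.

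The genes whose pattern was most like that of Fst were found by Pearson r over the 24 group means, among 971 genes whose group means spanned at least 1 log2 unit. These r values are descriptions; the groups share mice of 2 ages and 4 lighting conditions, and advance ZT20 and long-day ZT0 weigh most. The 8 highest were Tnfrsf12a (0.77), the receptor for the cytokine TWEAK, Maff (0.75), a small MAF transcription factor, the serine protease Prss23 (0.75), the metalloproteases Adamts12 (0.75) and Adamts15 (0.73), the small GTPase Gem (0.74), the serotonin transporter Slc6a4 (0.69) and the channel subunit Calhm5 (0.69).

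Without advance ZT20 and long-day ZT0, r was 0.08 for Maff and 0.10 for Gem, so their likeness rested on these groups, whereas it was 0.90 for Adamts12 and 0.86 for Prss23. Only 3 of the 8 were among the top 8 then, and 4 were by Spearman rho. Gem read 8.25 and 8.50 at advance ZT20 and 7.33 and 7.27 at advance ZT16. It read 9.13 and 8.99 at long-day ZT0, and 7.06 and 6.52 at short-day ZT20, the same clock hour. Tnfrsf12a was 10.40 and 10.50 at advance ZT20 and 9.78 and 9.56 at ZT16, and 9.69 and 9.70 at long-day ZT0, where it did not stand above its long-day ZT20 arrays (9.73 and 9.40) as Fst did. The other 6 members correlated with Fst at r between -0.45 and 0.02.

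**Figure D5:**
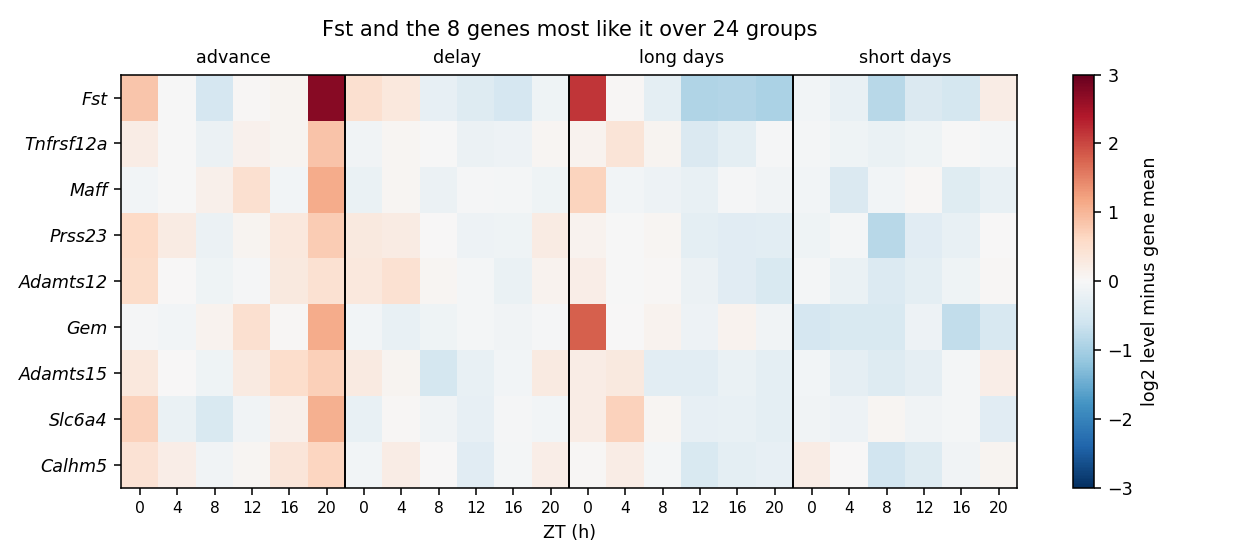
Group means of Fst and of the 8 genes most like it, as log2 level minus the mean of each gene over the 24 groups (colour), by ZT in hours within the advance, delay, long-day and short-day conditions. Fst and Gem are high at both advance ZT20 and long-day ZT0, while Adamts12 and Prss23 follow Fst at the other times as well (r = 0.90 and 0.86 without these groups).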

How the data were processed

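RNA of the pars tuberalis was measured on 48 Affymetrix arrays (24 groups of 2). The authors deposited log2 values per probe set, which the submitters' processing notes trace to RMA run under R 2.8.0. RMA corrects background, equalises array distributions and summarises probes, so a shift of most genes in one direction would not be visible. Of 45101 probe sets, 34958 carried 1 gene symbol, 932 several and 9211 none. Each of 18193 genes was read from its brightest probe set with 1 symbol.

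The model, fitted across genes by limma 3.58.1 under R 4.3.3, had a mean per group (24 residual degrees of freedom, variance trend). All tests are two-sided, with Benjamini-Hochberg adjustment of p across the 18193 genes and a threshold of 0.05. Errors of differences are SE of this model. For F tests the size is the highest minus the lowest value over times. The scripts were tested on simulated data.

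Members, lists and tests were chosen with earlier results of these data known. The design text states that the procedure was repeated to give both replicates; with 2 arrays per group their number limits the precision. Named were all members, up to 3 passing genes per pathway list and comparison with the smallest p, the 8 genes most like Fst, and checks. Which of these genes the text gives with values was decided after the values were seen, as was naming Fstl3 and, in part, Tgfbr1. Mstn had no probe set with 1 symbol. Of the other marker lists, under long days tanycyte genes were 2 higher and 3 lower of 5, astrocyte 2 and 2 of 5, endothelial 0 and 2 of 5, meningeal 0 and 1 of 5, hypothalamic neuron 1 and 1 of 4, other pars distalis 1 and 0 of 4, and pars tuberalis thyrotroph 5 and 0 of 6. These counts stand beside 43.3% of all genes that passed there. Alternatives covered probe set, dim genes, variance prior, replicate block, samples fitted, centring, single arrays, doubted arrays and matching by clock hour. The replicate block in each condition, the actin covariate, and the half-site and GC box motifs were chosen after seeing the data.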

Additional observations from a re-analysis of the deposited data

Results flagged for a closer look

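The daily course of Fst from ZT4 to ZT20 differed between long and short days, by a range of 1.69 log2 units in the long-minus-short difference (limma F test of the interaction, adjusted p = 0.0323; 0.00225 to 0.122 over 30 alternatives). Long days were higher at ZT4 and ZT8 and lower at ZT12, ZT16 and ZT20.

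The change of Inha toward the evening differed between the delay condition and short days by 0.33 log2 units (limma, adjusted p = 0.0388; 0.0128 to 0.141 over 28 alternatives).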

How the results depend on the processing

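Inha in long minus short days kept its direction and its call under all 31 alternatives. The number of members called changed as follows. With the mean of all probe sets it was 0 for the short-day course (main 1), 0 for the course difference (main 1), 0 for the advance course (main 1) and 1 for advance minus delay (main 0). With a replicate block in each condition, added after seeing the data, it was 2 for the short-day course, where Fst passed beside Acvr2b, and 1 for advance minus delay. With only the conditions compared it was 0 for evening light (main 1) and 1 for advance minus delay. It was 0 for evening light with the actin covariate and 1 for advance minus delay with arrays centred on their median. Leaving out single arrays gave 2 to 4 members in long minus short days, 0 to 1 in the short-day course, long-day course, course difference, advance course and advance minus delay, 0 to 2 for evening light, and 0 throughout for the delay course and the evening step. Acvr2b in long minus short days was 0.0699 with another probe set; Inhbb was -0.28 with its other probe set and -0.14 with the mean of both, and 0.42 for evening light with the other. The cause was not tested.

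The number of all genes called for evening light (1111) was 505 with the mean of probe sets, 1837 with the replicate block over all arrays, 2388 with it in each condition, 75 with only the conditions compared, 86 with the actin covariate and 139 to 2631 without single arrays. With only the conditions compared it was 89 for the short-day course (1621), 49 for the long-day course (252), 248 for the course difference (680), 92 for the delay course (276) and 1033 for the advance course (385). With the block in each condition these were 2838, 392, 1115 and 497 for the first 4. Without single arrays they were 901 to 2765, 128 to 374, 482 to 1422, 172 to 273 and 246 to 390. For advance minus delay (1592) the actin covariate gave 934 and single omissions 825 to 1842, and the evening step (7) stayed between 0 and 11.

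The replicate block over all arrays changed no count of members: it gave 3 for long minus short days and 1 each for the short-day course, course difference, advance course and evening light. Replicate numbers were not taken to pair the arrays, because in no condition did every pair of times correlate over 0.1 in its replicate differences. Of 15 pairs, 6 did in advance (median r 0.07), 11 in delay (0.27), 14 under long days (0.24) and 3 under short days (0.03). Most pairs thus did in delay and under long days, and only the block in each condition models a shift within conditions. For long minus short days that block gave 6381 genes in place of 7872, with 3 members called. With 2 arrays per group the replicate spread limits what small differences can show.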
